A study of Mus musculus with 20 samples.

Results

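Lpp on mouse chromosome 16 and the neighbouring genes Dis3l2 and Alpi on chromosome 1 were read in 20 crocidolite-induced peritoneal mesotheliomas by array comparative genomic hybridisation, which sets tumour DNA against normal DNA on the same array. The 3 genes are 3 of 21138 gene names on the array, and they hold 96 of its 170305 probes: 61 for Lpp, 34 for Dis3l2 and 1 for Alpi. They were chosen by their low log2 ratios in single tumours, Lpp in Dmt1Tg tumour 4 and Dis3l2 with Alpi in Mth1KO tumour 3, so the low values of those tumours are given as a description and not as a test. A window of 109 probes around Lpp (chr16:24006018-25492107) and one of 105 probes around Dis3l2 and Alpi (chr1:88310109-89399397, both mm9) were read in all 20 tumours.

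Every mouse had 2 intraperitoneal injections of 1.5 mg crocidolite, an amphibole asbestos, at 6 and 7 weeks of age, and was followed for 600 to 700 days. The tumours came from wild-type mice (7), Dmt1Tg mice carrying a transgene of the iron transporter Dmt1 (4), and mice lacking Mutyh (3), Ogg1 (3) or Mth1 (3), enzymes that deal with oxidised guanine. The labels give the wild-type tumours as a set of 4 named with Dmt1, here WT (Dmt1), and a set of 3 with no further name, here WT (plain). They do not name the promoter of the transgene or the construction of the knockouts, nor do they say whether tumours of a group came from separate animals, and a p-value here covers only how the tumours vary among themselves. On each array the Cy5 channel held tumour DNA and the Cy3 channel held DNA from non-neoplastic C57BL/6 kidney of the same genotype. Values are log2 ratios of tumour over kidney, centred on the median autosomal probe of each array, so that 0 is the array's typical ratio and a pure loss of 1 of 2 copies would lie at -1.0.

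Lpp encodes a LIM-domain protein of the zyxin family that sits at focal adhesions and cell contacts and shuttles to the nucleus; the human gene was named for its fusion with HMGA2 in lipomas. Dis3l2 encodes a cytoplasmic exoribonuclease that degrades RNAs tagged with terminal uridines, among them precursors of the let-7 microRNA, and inherited loss of the human gene causes Perlman syndrome, an overgrowth disorder with susceptibility to Wilms tumour. Alpi encodes the alkaline phosphatase of the intestinal brush border. DNA copy number says nothing of whether these genes are expressed in mesothelium, and RNA was not analysed here.

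The borders of the Lpp stretch lie between 4 probes, whose sequences are shown because the distance between them is the resolution of the array at this locus. Each is printed as the array design gives it, with its mm9 position and in lower case throughout, since the whole probe hybridises and no letter is singled out. The design's strand was not used.
Last Lpp probe before the stretch, chr16:24639351-24639410: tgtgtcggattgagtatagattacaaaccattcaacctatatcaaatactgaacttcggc
First Lpp probe of the stretch, chr16:24645071-24645130: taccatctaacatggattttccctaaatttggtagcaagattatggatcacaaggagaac
Last Lpp probe of the stretch, chr16:24848086-24848145: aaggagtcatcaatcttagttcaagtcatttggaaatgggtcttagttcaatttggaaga
First Lpp probe after the stretch, chr16:24855051-24855109: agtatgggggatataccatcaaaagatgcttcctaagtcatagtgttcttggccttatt

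The chromosome 1 stretch is shown the same way by its 4 border probes, of which the last inside is the only probe of Alpi, and by the Dis3l2 probe with the lowest ratio.
Last Dis3l2 probe before the stretch, chr1:88690636-88690695: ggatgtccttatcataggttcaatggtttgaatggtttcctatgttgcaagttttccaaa
First Dis3l2 probe of the stretch, chr1:88700696-88700755: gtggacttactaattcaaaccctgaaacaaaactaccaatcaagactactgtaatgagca
Lowest Dis3l2 probe, chr1:88800687-88800746: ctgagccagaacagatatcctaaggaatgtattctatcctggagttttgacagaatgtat
The Alpi probe, last of the stretch, chr1:88994904-88994963: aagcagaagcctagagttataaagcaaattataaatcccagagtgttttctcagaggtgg
First probe after the stretch, outside a named gene, chr1:89001290-89001349: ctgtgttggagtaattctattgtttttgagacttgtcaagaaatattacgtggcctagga

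The 20 arrays differed in noise and came from 5 slides scanned on 2 days. The spread between neighbouring probes ran from 0.22 to 0.54 on the log2 scale, and it was 0.24 in Dmt1Tg 4 and 0.36 in Mth1KO 3. Both the WT (Dmt1) and the Dmt1Tg arrays were scanned on the first day and all others on the second. WT (plain) 1 and 2 had surface patches, areas of the slide with a shifted ratio, over 6.83% and 4.75% of their spots. They reach into Lpp, and the main Lpp values that they move are given with and without those spots. The kidney channel was well above background at 73.4% to 97.7% of the spots of an array, with the lowest share in Mth1KO 3. Chromosome 16 and 1 probes of the windows had 30.0% to 41.5% G and C.

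Dmt1Tg 4 had a low stretch inside Lpp. The run of neighbouring probes that stood furthest from the rest of its window held 20 Lpp probes, chr16:24645071-24848145, a length of 203075 bp out of the 582302 bp that the Lpp probes span. Their mean was -0.86 (SE 0.05 over 20 probes), a linear ratio of 0.55, and single probes lay between -1.16 and -0.39. The 26 Lpp probes before the stretch averaged -0.32 and the 15 after it -0.00. Lpp lies on the forward strand in RefSeq (GRCm38.p6), so the probes before the stretch are those nearer the start of the gene. By probe position the stretch lay in the middle of the gene, with both ends of the probed gene outside it. The files do not say which exons or introns it covers.

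In the other 19 tumours the same 20 probes averaged 0.02 ± 0.21 (SD, n = 19). The other Dmt1Tg tumours were at -0.00, 0.15 and 0.08 for tumours 1, 2 and 3. The WT (Dmt1) tumours were at -0.00, -0.24, 0.03 and 0.12, and the WT (plain) tumours at -0.52, -0.41 and 0.15. The MutyhKO tumours were at 0.03, 0.32 and 0.27. Values of 0.11, 0.05 and 0.06 were read in the Ogg1KO tumours, and of -0.08, 0.14 and 0.22 in the Mth1KO tumours. Dmt1Tg 4 was thus below every other tumour, and 0.34 below the nearest, WT (plain) 1. In that array 5 of the 20 spots lay in a patch, and the mean of its other 15 was 0.03. WT (plain) 2 had 4 such spots, and its other 16 averaged 0.09. With patch spots left out the other tumours averaged 0.08 ± 0.12 (SD, n = 19), and the nearest was WT (Dmt1) 2 at -0.24. No Lpp spot of the stretch lay in a patch in Dmt1Tg 4.

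**Figure D1:**
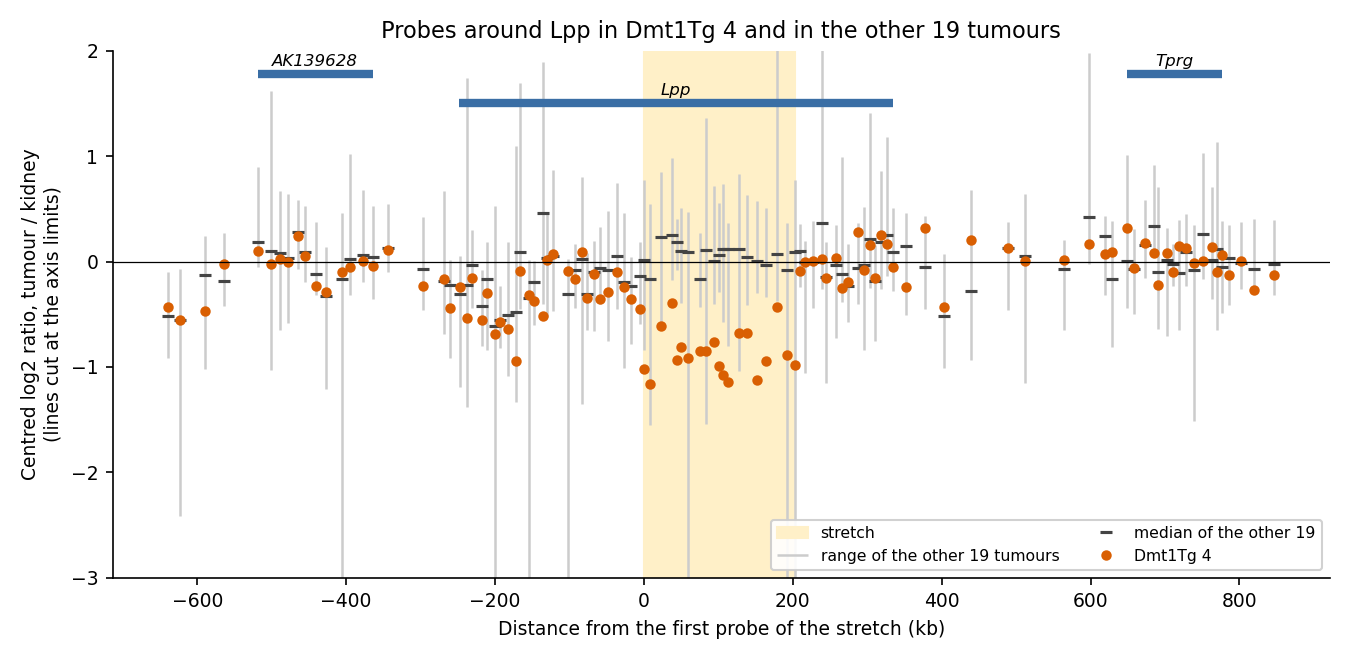
Centred log2 ratio of tumour over kidney (vertical axis) for the 109 probes of the Lpp window, by distance in kb from the first probe of the stretch. Orange points are Dmt1Tg 4, black dashes the median and grey lines the range of the other 19 tumours, cut at the axis limits, and blue bars the span of a gene's probes; the 20 points in the shaded stretch lie between -1.16 and -0.39.

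The low values were shared by all probes of the stretch rather than carried by a few. Dmt1Tg 4 was below the median of the other tumours at 20 of 20 probes and the lowest of all 20 tumours at 14 of 20. Over all autosomal probes it was below that median at 52.5% and the lowest at 1.11%. At the other 6 probes the tumours below it were WT (Dmt1) 2 and 3 and WT (plain) 1 and 2. With patch spots left out Dmt1Tg 4 was the lowest at 18 of 20. All 20 spots were well above background in both channels. In Dmt1Tg 4, 1 of 161071 runs of 20 autosomal probes, 0.000621%, had a mean as low, and that run is the stretch. The share reached 2.59% on another array, WT (plain) 2, and 1.27% there without patch spots, so the depth of a run has to be read within its array. The stretch was chosen from the ratios of Dmt1Tg 4, so its counts and shares describe it and test nothing.

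The right border was sharp on the scale of the probes, and the left less so in the ratios as they stand. Both were placed by these same ratios, so the steps across them are a description. On the left the ratio went from -0.45 at the last probe outside to -1.02 at the first inside, over a gap of 5660 bp. On the right it went from -0.98 to -0.09 over 6905 bp. Placing the left border up to 2 probes earlier fitted nearly as well, with the first probe inside at 24627105 to 24645071, because the 3 probes before the stretch stepped down from -0.24 to -0.45. No other position on the right came within the drop of 2 in log likelihood used for border ranges. With the median of the other tumours subtracted from each probe, the search gave the same 20 probes, at -0.92, and 1 position for each border.

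The channels were also read apart, as the mean signal of the stretch minus that of the rest of the window. In the tumour channel this was -1.19 in Dmt1Tg 4 and -0.98 to -0.16 in the other 19, with a median of -0.29. The low end was WT (plain) 2, and with patch spots left out the other 19 lay between -0.47 and -0.05. In the kidney channel it was -0.44 in Dmt1Tg 4, which had 10 of the other 19 below it, and their median was -0.44. The low ratio therefore came with a low tumour signal and a kidney signal in the middle of the other arrays. The stretch was chosen by ratios that hold the tumour signal, so this is a description and no separate reading.

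**Figure D2:**
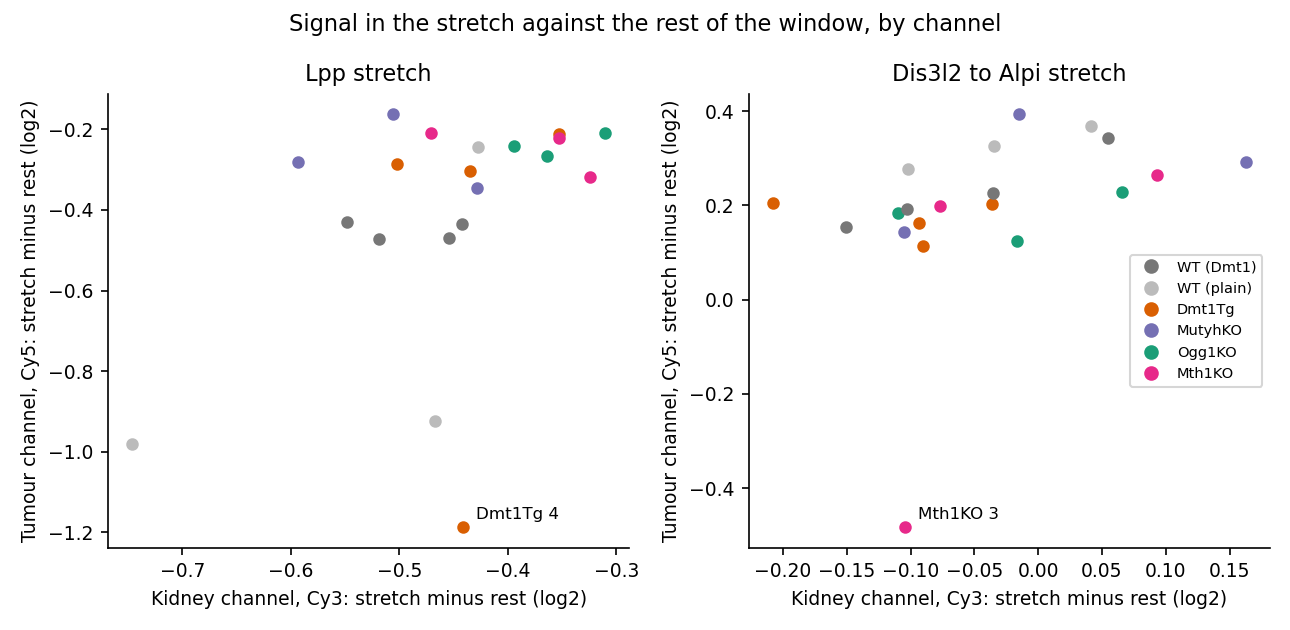
Mean log2 signal of the stretch minus the rest of its window in the tumour channel (vertical axis) against the kidney channel (horizontal axis), 1 point per tumour, coloured by group. Dmt1Tg 4 has the lowest tumour signal at the Lpp stretch (-1.19) and Mth1KO 3 at the chromosome 1 stretch (-0.48), while their kidney signals lie within the other tumours.

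The rest of Lpp was not flat either, in any group. The first part of the gene, before the stretch, was below 0 in 19 of 20 tumours, with a median of -0.18. Within it, 6 probes at chr16:24427304-24473492 formed the run that stood out in the median of all tumours, at -0.62 in Dmt1Tg 4 and -0.47 ± 0.30 (SD, n = 19) in the others. That low run ranged from -1.20 in WT (plain) 2 to 0.07 in Ogg1KO 3. WT (plain) 1 and 2 each had 1 of the 6 probes in a patch, and without it they moved from -1.10 to -0.63 and from -1.20 to -0.71, which left the 19 at -0.42 ± 0.20 (SD). After the stretch, Dmt1Tg 4 at -0.00 lay among the others, which averaged 0.02 ± 0.12 (SD, n = 19). The G and C share of a window probe correlated with the median ratio of the other 19 tumours at r = 0.16 over the 109 probes, which share their arrays.

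The genes beside Lpp did not share the low value of Dmt1Tg 4. Tprg, the next gene after Lpp in the window, had 14 probes at 0.05 against 0.06 ± 0.09 (SD, n = 19). AK139628, a transcript before Lpp with 12 probes, was at -0.03 against 0.03 ± 0.08. The single probes of AK143977 and AK146532 were at -0.47 and -0.03 in this tumour, and the others ranged from -1.02 to 0.24 and from -0.42 to 0.27. All 4 values lay within the range of the other tumours.

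Mth1KO 3 was low over most of Dis3l2 and into the sequence before Alpi, with less certain borders. Searching its ratios as they stand gave only 5 Dis3l2 probes, chr1:88776953-88820069, with a mean of -1.23, and the rest of the window at -0.37. In the other tumours the window had a profile of its own: the run that stood out in the median of all 20 tumours was one of 40 probes at chr1:88630320-89041683, which averaged 0.11 ± 0.10 (SD, n = 19) in the other 19. With the median of the other tumours subtracted at each probe, the search gave 27 probes, chr1:88700696-88994963, a length of 294268 bp. They were 23 probes of Dis3l2, 2 outside any named gene, that of AK077157 and that of Alpi. The unsubtracted mean of the 27 probes in Mth1KO 3 was -0.70 (SE 0.09 over 27 probes), a linear ratio of 0.62, and the mean of the subtracted values was -0.81.

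In the other 19 tumours these 27 probes averaged 0.10 ± 0.11 (SD, n = 19). The other Mth1KO tumours were at 0.01 and 0.07 for tumours 1 and 2. The WT (plain) tumours were at 0.07, 0.13 and 0.06, and the WT (Dmt1) tumours at 0.31, 0.20, 0.21 and 0.16. The Dmt1Tg tumours were at 0.15, 0.29, 0.12 and 0.16. Values of -0.06, 0.09 and -0.06 were read in the MutyhKO tumours, and of -0.07, 0.08 and 0.02 in the Ogg1KO tumours. Mth1KO 3 lay 0.62 below the nearest, Ogg1KO 1, and the groups of the other 19 overlapped in part. By scan day and without Dmt1Tg 4 and Mth1KO 3, the mean was 0.21 ± 0.07 (SD, n = 7) on the first day and 0.03 ± 0.07 (SD, n = 11) on the second, so the second-day arrays were lower here on average.

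**Figure D3:**
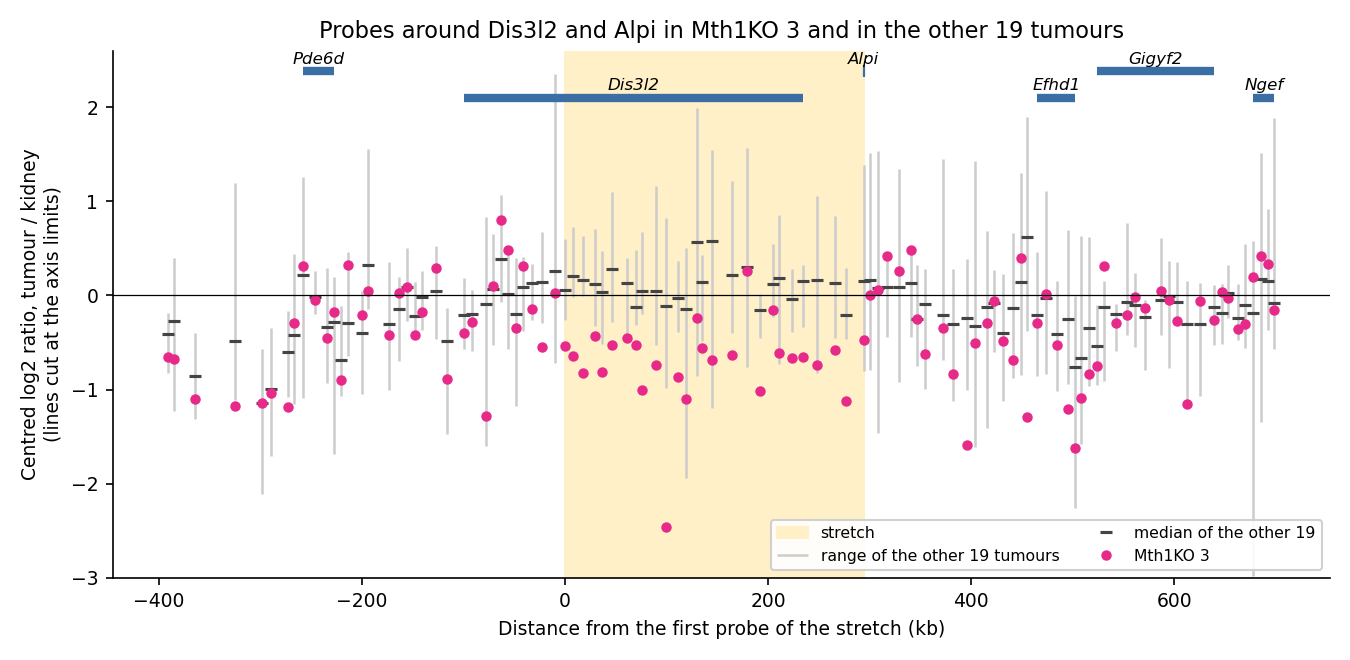
Centred log2 ratio of tumour over kidney (vertical axis) for the 105 probes of the chromosome 1 window, by distance in kb from the first probe of the stretch. Pink points are Mth1KO 3, black dashes the median and grey lines the range of the other 19 tumours, cut at the axis limits, and blue bars the span of a gene's probes; the points of the stretch lie at -2.46 to 0.26 and low points recur further right.

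Single probes of this stretch varied more than those of Lpp. Mth1KO 3 was below the median of the others at 27 of 27 probes and the lowest of 20 tumours at 19 of 27, and over all autosomal probes it was below that median at 49.7% and the lowest at 5.33%. The lowest probe was at -2.46 and the highest at 0.26, where 7 other tumours were lower. At the 8 probes where it was not the lowest, between 1 and 7 tumours lay below it. The kidney signal was well above background at 19 of the 27 spots in this array and the tumour signal at 26. In Mth1KO 3, 1364 of 160930 runs of 27 autosomal probes, 0.848%, were as low as the unsubtracted mean, and 7, or 0.00435%, were as low as the mean after subtraction. At the same limits the shares reached 5.06% and 0.241% on another array, WT (plain) 2, patch spots included. The 27 probes were chosen by the subtracted values of Mth1KO 3, so these counts and shares describe the stretch and test nothing.

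The borders are ranges here. At the left border the ratio went from 0.03 at the last probe outside to -0.54 at the first inside over a gap of 10000 bp, and starts from 88668797 to 88718272 came within the drop of 2 in log likelihood. All of these lie within Dis3l2, whose first 11 probes averaged -0.12 in Mth1KO 3 against 0.05 ± 0.11 (SD, n = 19). On the right the last probe inside could end at 88977450, before Alpi, at 88994963, the end of the Alpi probe, or at 89001349, after it. Whether Alpi was part of the stretch is therefore not settled by these probes.

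In the tumour channel the stretch minus the rest of the window was -0.48 in Mth1KO 3 and 0.11 to 0.39 in the other 19. In the kidney channel it was -0.10 in Mth1KO 3, with 4 of the other 19 below it. Only in the tumour channel did Mth1KO 3 lie outside the range of the others. The stretch was chosen by ratios that hold this signal, so its low value is a description and no separate reading.

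Alpi rests on 1 probe, and its values go against singling out Mth1KO 3. The probe read -0.48 in that tumour, but -0.80 in MutyhKO 2 and -0.79 in Ogg1KO 1. The 20 values had a median of 0.13 and reached 1.39 in WT (Dmt1) 1. The WT (Dmt1) tumours were at 1.39, 0.35, 0.26 and -0.07, the WT (plain) tumours at 0.72, 0.04 and 0.49, and the Dmt1Tg tumours at 0.48, 0.47, 0.49 and -0.03. Among the knockouts the MutyhKO tumours were at 0.11, -0.80 and 0.10, the Ogg1KO tumours at -0.79, -0.18 and 0.40, and the Mth1KO tumours at -0.32, 0.15 and -0.48. All groups overlapped. The kidney signal at the Alpi probe was not well above background in Mth1KO 3.

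The probe of AK077157, a transcript between Dis3l2 and Alpi, was the lowest of 20 tumours in Mth1KO 3, at -1.12 against -0.46 to 0.29 in the others. Past the Alpi probe the ratio first rose, with 0.01 at the next probe. It then fell again over 17 probes from Ecel1, a membrane peptidase gene, to Efhd1, a gene of a mitochondrial calcium-binding protein, chr1:89047492-89203249. These averaged -0.60 in Mth1KO 3 and -0.16 ± 0.24 (SD, n = 19) in the others, of which MutyhKO 3 was lowest at -0.56. The values of that part split by scan day, at -0.05 to 0.21 in the 8 tumours of the first day and -0.60 to -0.16 in the 12 of the second, so Mth1KO 3 lay only 0.04 below the next tumour of its own day. Scan day and genotype overlap only through the wild-type sets, and their parts in this difference were not tested.

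Single genes in that part varied. Chrnd, a subunit of the muscle acetylcholine receptor, had 1 probe at -1.59 in Mth1KO 3, the lowest of 20, against -1.0 to 0.39. Chrng, another subunit, was at -0.50 and had 6 tumours below it. Efhd1 (5 probes) was at -0.72, second lowest, and Ecel1 at -0.25 lay in the middle. Eif4e2, a cap-binding translation factor with 3 probes, was at -0.28 and 1700027L20Rik at -0.84, both within the range of the others.

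Further out, the genes of the window lay within the other tumours, except Cops7b. Gigyf2, a partner of that cap-binding protein, had 12 probes at -0.24 in Mth1KO 3 against -0.19 ± 0.08 (SD, n = 19), Ngef 10 probes at -0.09 against -0.02 ± 0.15, and 3110079O15Rik 1 probe at -0.31 against -0.56 to 0.55. Before Dis3l2, Pde6d, which carries lipid-modified proteins, was at -0.09 over 4 probes. The transcript ENSMUST00000121534 was at -0.90 with 3 tumours lower. Cops7b, a signalosome subunit with 2 probes, was at 0.06 and the highest of 20 in this tumour.

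**Figure D4:**
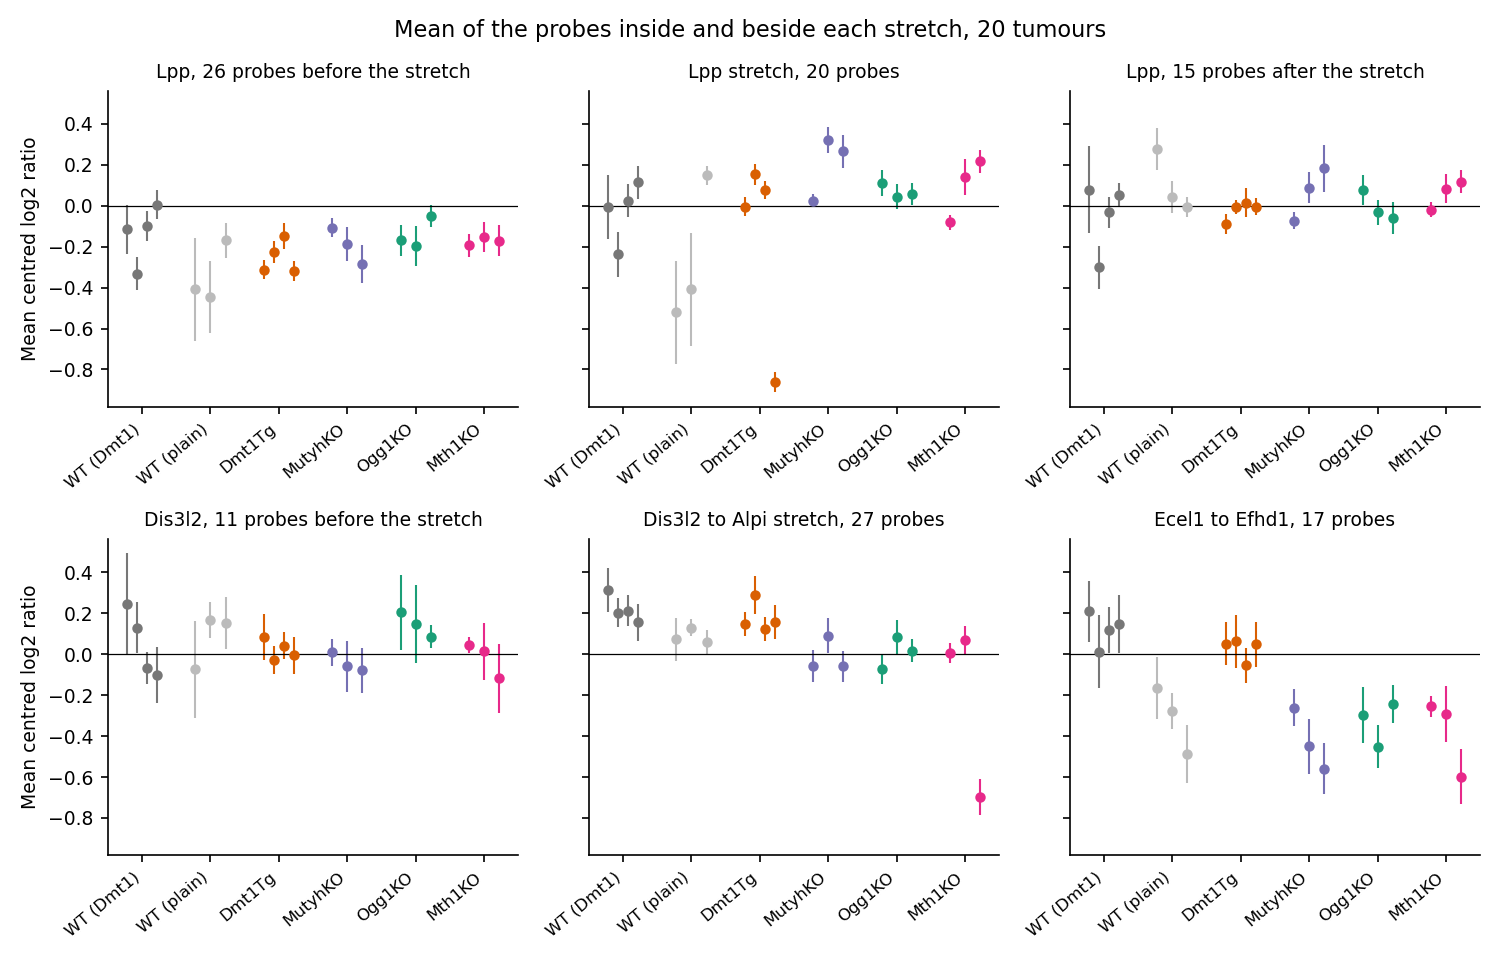
Mean centred log2 ratio (vertical axis) of the probes before, inside and after each stretch, 1 point per tumour with its SE over probes, by group. Dmt1Tg 4 at -0.86 and Mth1KO 3 at -0.70 lie below all others inside the stretches, and from Ecel1 to Efhd1 the groups of the second scan day lie below those of the first.

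Averaged over whole genes, both tumours were the lowest of 20. These means hold the probes of the chosen stretches, 20 of 61 for Lpp and 23 of 34 for Dis3l2, so they are no separate reading. Lpp was at -0.42 in Dmt1Tg 4 and between -0.31 and 0.05 in the others, or between -0.29 and 0.06 with patch spots left out. The lower end was WT (plain) 2 with its patch spots, which was at -0.07 without them, and WT (plain) 1 moved from -0.28 to 0.06. Dis3l2 was at -0.50 in Mth1KO 3 and between -0.04 and 0.27 in the others. Dmt1Tg 4 was the lowest of 20 at 0.75% of the genes and Mth1KO 3 at 5.08%. The values of the 2 genes over the 20 tumours had r = -0.27 with each other, or -0.32 with patch spots left out. Dis3l2 and Alpi had r = 0.45, or 0.44 without patch spots. These figures share arrays and scan days.

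The groups were compared over all 20 tumours with limma, a linear model across all 21138 genes, for each genotype against the 7 wild-type tumours; the 4 comparisons share those controls. No gene passed an adjusted p of 0.05 in any of them, 0%, while 824 genes (3.9%) had an unadjusted p under 0.05 for Dmt1Tg, 1885 (8.92%) for MutyhKO, 1759 (8.32%) for Ogg1KO and 1739 (8.23%) for Mth1KO. With only the same-day wild-type tumours as controls, 1046 genes passed the adjusted p for MutyhKO, 478 for Mth1KO and 2 each for Dmt1Tg and Ogg1KO, and none of them was Lpp, Dis3l2 or Alpi. Lpp averaged -0.13 ± 0.15 (SD, n = 7) in wild-type tumours, -0.16 ± 0.18 (n = 4) in Dmt1Tg, 0.00 ± 0.05 (n = 3) in MutyhKO, -0.04 ± 0.03 (n = 3) in Ogg1KO and -0.03 ± 0.08 (n = 3) in Mth1KO. Its differences from wild type were 0.13 (SE 0.10, limma adjusted p = 0.68) in MutyhKO, 0.09 (adjusted p = 0.80) in Ogg1KO and 0.10 (adjusted p = 0.77) in Mth1KO. None passed. With spots in patches left out the wild-type mean was -0.05 ± 0.12 (SD, n = 7) and these 3 differences were 0.05, 0.01 and 0.02. Against the WT (plain) tumours alone, patches included, they were 0.21, 0.17 and 0.18 (limma adjusted p = 0.31, 0.49 and 0.46). Those controls rest on the patched arrays. Without patch spots WT (plain) 1 moved from -0.28 to 0.06 and WT (plain) 2 from -0.31 to -0.07. The comparison with WT (plain) alone was not run without patch spots. The Dmt1Tg difference of -0.03 holds the chosen tumour and became 0.05 without Dmt1Tg 4 and -0.11 without patch spots. In order from lowest, the means of neighbouring groups differed by less than the larger of their SDs.

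Dis3l2 averaged 0.13 ± 0.09 (SD, n = 7) in wild-type tumours, 0.12 ± 0.04 (n = 4) in Dmt1Tg, -0.00 ± 0.06 (n = 3) in MutyhKO, 0.07 ± 0.04 (n = 3) in Ogg1KO and -0.13 ± 0.32 (n = 3) in Mth1KO. The MutyhKO difference was -0.13 (SE 0.10, limma adjusted p = 0.70) and the Ogg1KO difference -0.06 (adjusted p = 0.89). Against the WT (plain) tumours alone they were -0.08 and -0.01, and with normexp background correction -0.04 and -0.03. In Mth1KO it was -0.26 with the chosen tumour and -0.07 without Mth1KO 3. The Dmt1Tg difference was -0.0017.

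The Alpi probe averaged 0.46 ± 0.49 (SD, n = 7) in wild-type tumours and 0.35 ± 0.26 (n = 4) in Dmt1Tg. The 3 knockouts were at -0.20 ± 0.52, -0.19 ± 0.59 and -0.22 ± 0.33 (SD, n = 3 each) for MutyhKO, Ogg1KO and Mth1KO. The differences were -0.65 for both MutyhKO (SE 0.29, limma adjusted p = 0.55) and Ogg1KO (adjusted p = 0.58), and -0.10 for Dmt1Tg (adjusted p = 0.99). The unadjusted limma p was 0.040 for MutyhKO and 0.041 for Ogg1KO, beside the 8.92% and 8.32% of all genes at an unadjusted p under 0.05. With only the wild-type tumours of each genotype's scan day as controls the differences were -0.62, -0.61 and -0.13, with limma adjusted p of 0.34, 0.41 and 0.96. The size depended on the background correction and on single tumours. With normexp the MutyhKO and Ogg1KO differences were -0.17 and -0.14 (limma adjusted p = 0.79 and 0.77), the MutyhKO difference was -0.35 without MutyhKO 2, and the Ogg1KO difference was -0.35 without Ogg1KO 1. None passed, and each group overlapped the wild-type tumours.

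**Figure D5:**
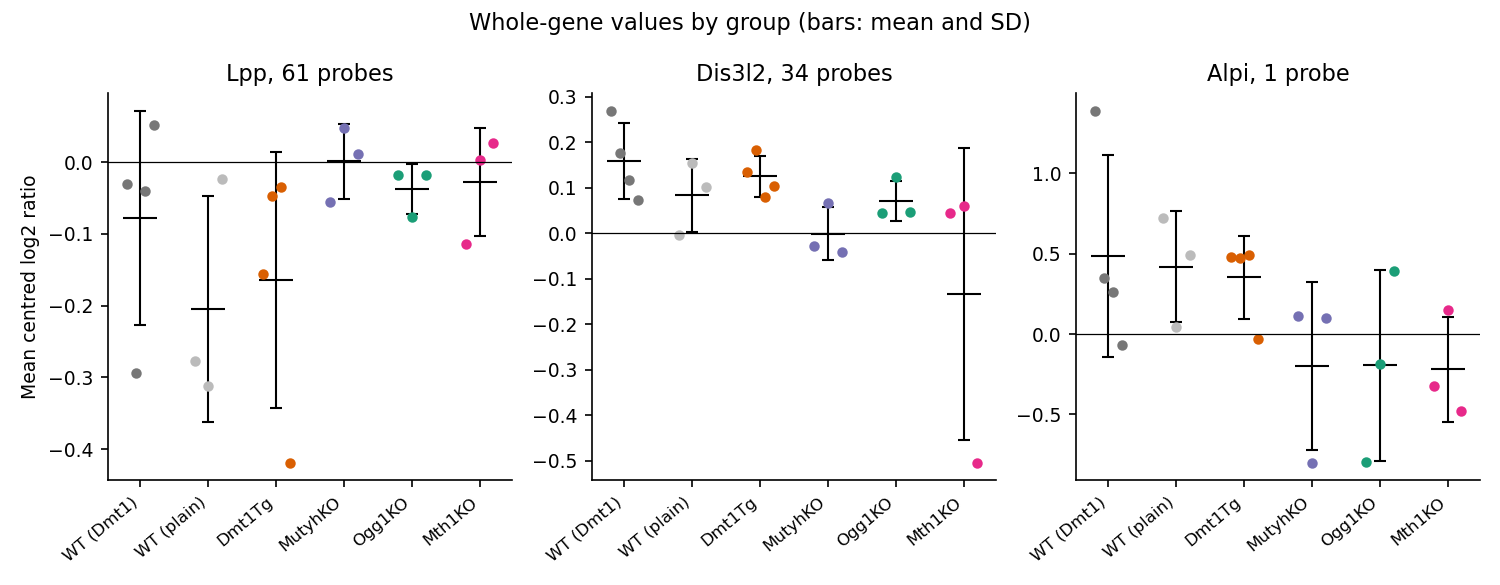
Whole-gene mean centred log2 ratio (vertical axis, own scale per panel) of Lpp, Dis3l2 and Alpi in each tumour, by group, with the group mean and SD as bars. The lowest points are Dmt1Tg 4 at -0.42 for Lpp and Mth1KO 3 at -0.50 for Dis3l2, while the Alpi values of all groups overlap.

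Genes that work with the 3 members were read from lists. Of 15 zyxin-family and focal adhesion genes, 14 had probes. None passed in any comparison, and their median difference was 0.10, 0.06, -0.05 and -0.03 for Dmt1Tg, MutyhKO, Ogg1KO and Mth1KO, beside 0.03, -0.01, -0.00 and -0.01 over all genes. Averaged over 20 tumours, the lowest was Pxn, the focal adhesion adaptor paxillin, at -0.87 ± 0.44 (SD, n = 20), and the highest Enah, an actin regulator, at 0.00 ± 0.09. These means were not set against the same means over all genes, so a low one is not read as a loss.

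Of 19 genes of RNA decay and let-7 control, 17 had probes and none passed in any comparison. Their median differences were 0.01, -0.06, 0.02 and 0.04 in the same order. Exosc1, an exosome subunit with 1 probe, was lowest at -0.93 ± 1.01 (SD, n = 20), and Lin28b, which blocks let-7 maturation, was highest at 0.35 ± 0.12. Lin28b was at 0.58 in Mth1KO 3, the highest of its 20 values. Of 3 further alkaline phosphatases only Alpl, the tissue-nonspecific enzyme, had probes, 7 of them, at -0.53 ± 0.33 (SD, n = 20), and its differences from wild type ran from -0.21 to 0.05. The means over 20 tumours given here were likewise not set against those of all genes.

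The genes on other chromosomes whose values ran most like each member over the 20 tumours were taken from 9462 genes with at least 3 probes. For Lpp they were AK007185 (r = 0.82), Galnt7 (r = 0.79) and Rhbdd1 (r = 0.78), which with patch spots left out had r = 0.77, 0.74 and 0.58. For Dis3l2 they were Ttc28 (r = 0.77), Kif9 (r = 0.76) and Map3k3 (r = 0.76), and for Alpi Smarcc2 (r = 0.81), Rad17 (r = 0.81) and Rbbp4 (r = 0.80). These describe 20 arrays that share slides and scan days, and the highest of many correlations is large by selection.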

How the data were processed

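Probe positions (mm9) and gene names are those of the array design, per the file headers. The deposited scanner files hold processed signal intensity for both channels, which the authors' Agilent Feature Extraction 10.7.1.1 (protocol CGH_107_Sep09) had background-subtracted, detrended and dye-normalised, per the file headers. They also hold log10 ratios of Cy5 over Cy3. The deposited value table of the series holds log2 ratios, equal to those log10 ratios after the change of base, with column medians of -0.03 to 0.03. No loess was applied. Ratios of processed signals were taken to log2, outlier spots left out, spots of a probe averaged and each array centred on its autosomal median. Stretches were runs of at least 5 probes giving the largest drop in residual sum of squares; border ranges are positions within a log likelihood drop of 2. SE is over probes of 1 array. Python 3.11.15, numpy 2.4.6, R 4.3.3 and limma 3.58.1 (lmFit, eBayes, Benjamini-Hochberg over all genes) were used, and the search and the fit were tested on simulated data. The simulated data for the fit had independent noise and no slide, scan-day or patch effects, unlike these arrays. Named genes are the members, all genes of both windows, the lowest and highest of each list, listed genes past the threshold and the 3 genes most like each member. The members, windows and lists were chosen with earlier results of these data known. Alternatives were another centring, normexp background correction, probe and patch filters, the value table, same-day controls, slide, scan day and replicate blocks, and leaving out each tumour.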

Additional observations from a re-analysis of the deposited data

Results flagged for a closer look

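Of 15 sets of 4 or 7 tumours examined, 2 had a tumour far from the others, and chance marks about 1 in 20. The sets share tumours and so are not independent. The knockout groups of 3 were not examined, so no tumour of theirs, Mth1KO 3 included, could be marked. In the Dmt1Tg group the Lpp stretch read -0.8624 in Dmt1Tg 4, with the next tumour at -0.0039. That value is the one for which Lpp was chosen, so its mark was fixed beforehand and cannot be set against the rate of 1 in 20.

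In the same group and tumour the Alpi probe read -0.0319, with the other 3 between 0.47 and 0.49. Over all groups 6 tumours had a lower Alpi value than this one.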

How the results depend on the processing

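The 20-probe Lpp stretch in Dmt1Tg 4 kept its borders in every alternative run but 2: normexp gave 21 probes at -0.68, and probes with the kidney signal above background on all arrays gave 9. Several of the alternatives could not move the borders. Another centring shifts all ratios alike, the value table holds the same ratios, and Dmt1Tg 4 had no spot in a patch. On chromosome 1 the 5-probe result of Mth1KO 3 changed with most choices. Subtracting the median of the other tumours gave 27 probes at -0.81, also with a minimum of 3 or 10 probes, and 29 at -0.78 with 500 kb more on each side; these last combinations were added after the data had been seen. Unsubtracted, normexp gave 53 probes at -0.37, a minimum of 10 probes gave 52 at -0.58, 500 kb more on each side gave 125 at -0.43, and the filter on the kidney signal gave a run before Dis3l2 at -1.11. The causes were not tested.

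Calls over all genes depended on the controls. With same-day wild-type tumours 2, 1046, 2 and 478 genes passed for Dmt1Tg, MutyhKO, Ogg1KO and Mth1KO, and with scan day as a term 2, 1046, 2 and 480; no member passed, with adjusted p from 0.31. For MutyhKO, normexp gave 2, the filter on the kidney signal 1 and leaving out patches 2. Leaving out single tumours gave 0 to 20 for MutyhKO, with 20 without MutyhKO 1, 0 to 1 for Ogg1KO and Mth1KO, and 0 for Dmt1Tg. Of 112 member differences under other alternatives 109 kept their sign, and of 240 with a tumour left out 232 did. The exceptions were all Dmt1Tg differences near 0: Dis3l2 at 0.0071 without patches and 0.0013 with slide as a random block, and, with a tumour left out, Lpp from -0.0749 (without Dmt1Tg 3) to 0.0533 (without Dmt1Tg 4), Dis3l2 from -0.0234 to 0.0220 and Alpi from -0.19 to 0.0533.

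Replicate numbers showed no pairing of the tumours. Deviations of same-numbered tumours correlated at -0.27 to 0.33 (median -0.017), and those of tumours with other numbers at -0.27 to 0.26 (median 0.003). Of 20 tumours, 5 were most like one with their own number, where 46 of the compared pairs shared a number and 120 did not. The replicate block gave 0 calls in each comparison and turned the Dis3l2 difference in Dmt1Tg to 0.0034. Alpi has 1 probe, so no alternative adds a second reading of that gene. Lpp levels by tumour, channels, runs and correlations without patch spots were added after the data had been seen.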
